A study of Mus musculus with 12 samples.

Results

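Heat shock proteins and folding chaperones were followed through 12 single tendon cells. They were taken from the raw count table by symbol, as every gene whose symbol starts with Hsp or Dnaj together with Tcp1, Cct2, Cct3, Cct4, Cct5, Cct6a, Cct7 and Cct8, leaving out Hspg2 (perlecan, a matrix proteoglycan) and pseudogene symbols. Of 55418 symbols, 82 were members, and they were divided by the place where the protein works into 44 of the cytosol, 13 of the endoplasmic reticulum (ER), 8 of the mitochondria and 17 of other or unassigned sites. The cells were 6 Tnmd-/- ScxGFP+ and 6 WT ScxGFP+ cells from uninjured, untreated Achilles tendons of mice on a C57BL/6 background (C57BL/6J in the methods), the former lacking tenomodulin, a membrane protein of tendon cells. Tnmd lies on the X chromosome, and the study's WT group held hemizygous males and females either homozygous or heterozygous. The methods do not say which of these gave the WT cells. ScxGFP, a green fluorescent reporter for Scx, a transcription factor of the tendon lineage, is carried by both genotypes, and every tendon was digested in collagenase for 8 hours before cells were picked by hand under the microscope. The methods give 2 tendons for this experiment, and neither they nor the labels tie a cell to an animal. The mice that were operated on in the study were 6 months old, while the age is not stated for these uninjured tendons. Each genotype therefore counted as 1 sample, no test was made, and cells are described by their values and ranges.

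Chaperones keep proteins from aggregating while they fold. Hsp70 proteins bind unfolded stretches in cycles of ATP hydrolysis that J proteins (the Dnaj genes) start and nucleotide exchange factors such as the Hsp110 proteins end, Hsp90 finishes the folding of kinases and receptors, and the ring-shaped chaperonins TRiC (cytosol) and Hsp60 (mitochondria) enclose whole proteins. Under heat or other proteotoxic stress the transcription factor HSF1 binds heat shock elements and raises the inducible members, while unfolded protein in the ER raises the ER members through a separate response. In tendon fibroblasts the ER chaperones handle a heavy load of secreted collagen.

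Values were raw counts of reads per gene, given here as CPM, the count scaled to a total of 1000000, with the total either that of a cell or, for pooled CPM, that of the summed cells of a genotype. Pooled log2 ratios are Tnmd-/- over WT after adding 1 CPM, and intervals on pooled CPM are exact Poisson intervals at 95% that cover counting error only, since the reads were amplified and carry no molecular identifiers. A gene was called seen in a cell at 10 counts or more. Total counts were 892713 to 10333351 in Tnmd-/- cells and 4516036 to 13613080 in WT cells. The targeted gene itself had 8 counts over the Tnmd-/- cells and 10185 over the WT cells, but it was seen in only 1 of the 6 WT cells (WT cell 14). Scx, whose fluorescent reporter the labels name, was itself seen in 3 WT cells and no Tnmd-/- cell. Of 12 tendon fibroblast markers, Col1a2, Dcn, Bgn and Comp were seen in all 12 cells, Col1a2 at only 0.970 CPM in Tnmd-/- cell 10. Another 5, Scx, Mkx, Col3a1, Lum and Pdgfra, were each seen in 4 cells or fewer. Of the 12 markers, 0 were higher and 4 lower by more than 2-fold in pooled CPM, against 35.5% and 34.9% of all genes (median log2 ratio -0.42). In any cell, summed markers reached at most 1330 CPM for cartilage, 361 for immune, 204 for glial, 31.1 for endothelial, 14.6 for skeletal muscle and 0.401 CPM for mural cells, and red blood cell markers were at 0. Tnmd-/- cell 3 stood apart, with 51.8% of its counts from mitochondrially encoded genes against 1.75 to 7.30% in the other 11 cells, a summed tendon marker level of 1820 CPM against 15668 to 175728 CPM, and Fabp4, a fatty acid binding protein of adipocytes, at 922 CPM with the other 5 adipocyte markers at 0. The annotation of the study's heat map names Tnmd-/- cells 9, 10 and 20 and WT cells 4, 5 and 10 as less degraded and the other 6 as more degraded. The less degraded cells held 6742665 to 13613080 counts and the more degraded cells 892713 to 5991316. Degradation level and depth thus cannot be told apart in any comparison of the levels below.

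Chaperone transcripts made up a few percent of all counts in nearly every cell. Summed over the members, the Tnmd-/- cells had 2994, 40064 and 50171 CPM (lowest, median and highest) and the WT cells 16296, 34940 and 53122 CPM. The ranges overlapped throughout, and Tnmd-/- cell 3 was the lowest of all, with the next Tnmd-/- cell at 36515 CPM. Per kilobase of exon, the highest medians over the 12 cells were those of Hspa8, the constitutive cytosolic Hsp70 (1968 CPM per kb), and of the Hsp90 genes Hsp90ab1 (1834) and Hsp90aa1 (1580), while in the pooled WT cells Hspb1 stood first at 2002 CPM per kb. Hspa8, Hsp90ab1 and Hsp90aa1 together took 45.7 to 80.9% of the members' counts in the Tnmd-/- cells and 52.5 to 70.5% in the WT cells. Of the 82 members, 16 had no count in any cell, among them the testis-enriched Hspa1l and Hspa2, and a further 6 had fewer than 20 counts over all cells and were left out of ratios.

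**Figure D1:**
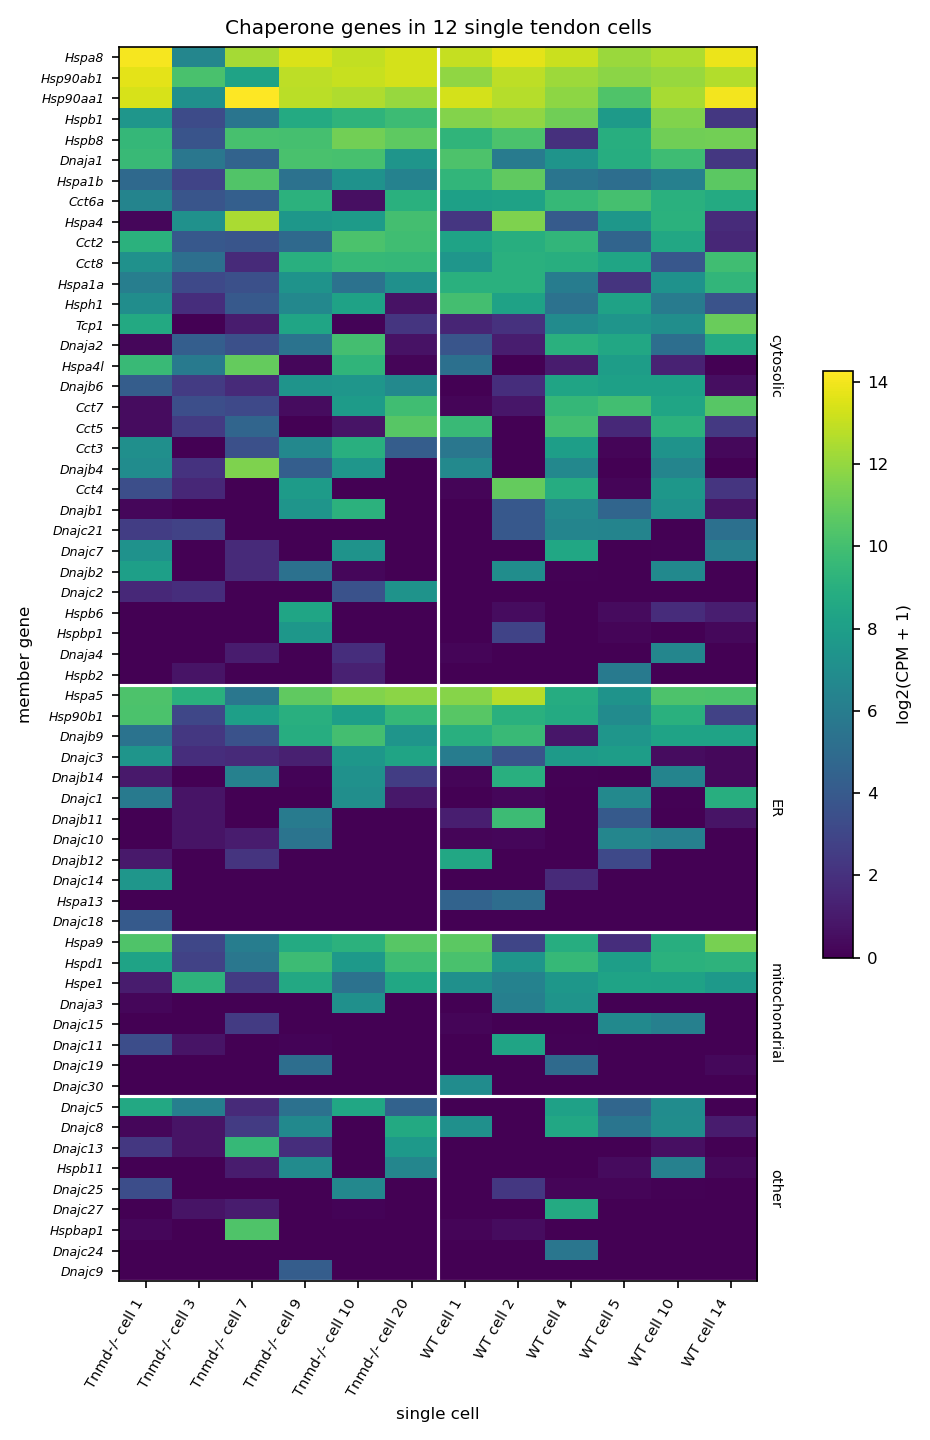
Level of the 60 members with at least 20 counts (rows) in each of the 12 cells (columns), as log2(CPM + 1) in colour, with white lines between compartments and genotypes. The upper rows of the cytosolic, ER and mitochondrial blocks are filled in nearly all cells, while most rows below them hold a signal in 4 cells or fewer, and the column of Tnmd-/- cell 3 is dark in the rows of Hspa8, Hsp90aa1 and Hsp90b1.

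The promoter stretches below are shown for the members whose cell values are set side by side: the inducible pair Hspa1a and Hspa1b, the small heat shock protein gene Hspb1, the ER pair Hspa5 and Hsp90b1, and Hspe1, which shares its promoter with Hspd1. They are RefSeq sequences of mouse build GRCm38.p6, each ending at the last base before the RefSeq start, 250 bases long except for Hspe1 with 150, and written along the gene's own strand. Capitals mark only the short form of the heat shock element, GAANNTTC, in Hspa1a, Hspa1b and Hspb1. In Hspe1 they mark its form of 3 units, and in Hspa5 and Hsp90b1 ER stress elements, all as defined below.
Hspa1a, chr17:34972157-34972406, minus strand: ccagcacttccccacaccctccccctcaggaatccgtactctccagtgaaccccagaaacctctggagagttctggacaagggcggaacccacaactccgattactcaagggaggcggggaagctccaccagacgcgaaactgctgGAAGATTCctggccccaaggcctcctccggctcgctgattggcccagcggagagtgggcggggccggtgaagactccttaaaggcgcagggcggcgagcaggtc
Hspa1b, chr17:34959239-34959488, minus strand: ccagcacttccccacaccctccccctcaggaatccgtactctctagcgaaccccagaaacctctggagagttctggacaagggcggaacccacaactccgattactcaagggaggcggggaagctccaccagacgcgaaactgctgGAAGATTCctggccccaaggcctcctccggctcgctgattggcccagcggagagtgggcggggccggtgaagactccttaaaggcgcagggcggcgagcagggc
Hspb1, chr5:135887669-135887918, plus strand: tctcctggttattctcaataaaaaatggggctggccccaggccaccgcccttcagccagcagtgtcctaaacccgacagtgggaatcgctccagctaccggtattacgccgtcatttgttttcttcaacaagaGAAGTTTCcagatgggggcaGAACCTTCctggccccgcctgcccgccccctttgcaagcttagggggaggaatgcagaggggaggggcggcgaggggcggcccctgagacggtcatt
Hspa5, chr2:34771840-34772089, plus strand: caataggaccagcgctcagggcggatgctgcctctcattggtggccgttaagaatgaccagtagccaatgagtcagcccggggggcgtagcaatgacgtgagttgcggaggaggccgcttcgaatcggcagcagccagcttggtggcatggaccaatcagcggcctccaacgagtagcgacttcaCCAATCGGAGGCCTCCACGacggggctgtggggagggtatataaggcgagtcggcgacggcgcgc
Hsp90b1, chr10:86705445-86705694, minus strand: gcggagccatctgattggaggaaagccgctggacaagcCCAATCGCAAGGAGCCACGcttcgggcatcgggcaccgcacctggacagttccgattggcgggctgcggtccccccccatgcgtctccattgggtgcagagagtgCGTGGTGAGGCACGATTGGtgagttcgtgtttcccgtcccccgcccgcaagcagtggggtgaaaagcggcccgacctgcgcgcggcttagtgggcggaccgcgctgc
Hspe1, chr1:55087998-55088147, plus strand: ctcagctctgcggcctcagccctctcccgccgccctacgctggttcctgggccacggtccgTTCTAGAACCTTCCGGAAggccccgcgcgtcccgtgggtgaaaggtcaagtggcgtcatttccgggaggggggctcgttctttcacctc

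These letters were searched on both strands in promoters from 250 bases before to 50 after each start, which RefSeq gave for 67 of the 82 members. Hspa8, Hsp90aa1, Hsp90ab1 and Hspa9 were among the members without such a sequence, so they were not searched and nothing is said of their promoters. A heat shock element of 3 units (GAA, any 2 bases, TTC, any 2 bases, GAA) was found in 4 of the 67 members (5.97%), namely Dnajb6, Hspd1, Hspe1 and Hsph1, against 179 of 27025 genes (0.662%). The shorter GAANNTTC, which lies inside the longer form, was found in 15 of 67 members (22.4%) against 9.04% of all genes, in 11 of the 37 cytosolic and 0 of the 11 ER members. An ER stress element (CCAAT, any 9 bases, CCACG) was found in Hspa5, Hsp90b1 and Dnajc3, 3 of the 11 ER members (27.3%), against 37 of all 27025 genes (0.137%). Hspa5 has 1 match beginning 65 bases before the start and Hsp90b1 has 2, at 212 and 107 bases. Between Hspa1a and Hspa1b, neighbours on chromosome 17, 3 of the 250 printed bases differ, and GAANNTTC begins 104 bases before both starts. Such a match is a description of the sequence and says nothing of binding in these cells.

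Hspa8, the housekeeping Hsp70, was seen in every cell. Its levels were 93.7, 9233 and 16906 CPM (lowest, median, highest) in the Tnmd-/- cells and 4435, 8464 and 14641 CPM in the WT cells. All cells but Tnmd-/- cell 3 lay at 4435 CPM or above, and the genotypes overlapped. Pooled CPM was 10436 (10402 to 10470) in Tnmd-/- cells and 7886 (7862 to 7910) in WT cells, a log2 ratio of 0.40, or 0.47 without Tnmd-/- cell 3. With the cells scaled one by one the ratio was -0.08 at equal weights, 0.24 with TMM and 0.07 with DESeq2 factors, the order in which these 3 scalings are given below. The TMM and DESeq2 factors were smallest in Tnmd-/- cells 3 and 7, so those scalings raised the values of these cells most. The spread between cells was far wider than these counting intervals, here and for every gene below.

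Hsp90ab1, the constitutive cytosolic Hsp90, stood higher in 4 of the 6 Tnmd-/- cells than in any WT cell. In the Tnmd-/- cells it ranged over 304, 7893 and 13014 CPM and in the WT cells over 3572, 4462 and 7263 CPM. Tnmd-/- cells 1, 9, 10 and 20 (7289 to 13014 CPM) all lay above the highest WT cell, whereas Tnmd-/- cells 3 (1134 CPM) and 7 (304 CPM) lay below the lowest, so that the ranges overlapped. Those same cells were the shallowest of the 12 (1504775 and 892713 counts), and the part of depth in this result was not tested. The pooled values were 8679 (8648 to 8710) and 4597 (4579 to 4616) CPM, with a log2 ratio of 0.92. It stayed between 0.78 and 1.01 when any 1 cell was left out, and was 1.03 among the less and 0.71 among the more degraded cells. Under the 3 scalings by cell it was 0.44, 0.25 and 0.22.

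Hsp90aa1, the Hsp90 that heat shock raises, overlapped widely between the genotypes, with 142, 6470 and 19715 CPM in Tnmd-/- cells and 1294, 5973 and 16501 CPM in WT cells. The pooled log2 ratio was 0.25. It was 0.74 among the less and -0.17 among the more degraded cells, and between 0.13 and 1.51 under the scalings by cell. Per exon length, Hsp90aa1 over Hsp90ab1 was 0.0952 to 0.730 in 5 Tnmd-/- cells and 49.5 in the remaining one, cell 7, which thus held the highest Hsp90aa1 and the lowest Hsp90ab1 of all cells. The WT cells lay between 0.276 and 2.04, the upper values in cells 1 and 14. About 28.5% of the 150-base words in Hsp90aa1 transcripts also occur in other genes, most often Gm12346, so its unique reads cover only a part of the gene.

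**Figure D2:**
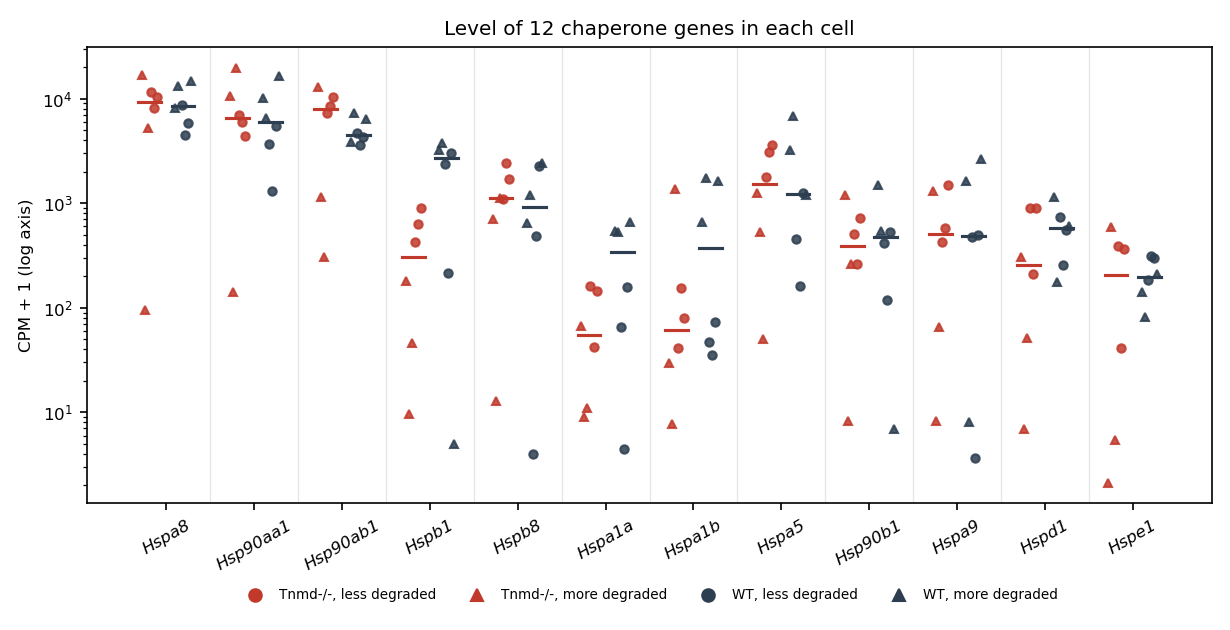
CPM + 1 on a log axis for 12 members in every cell, Tnmd-/- in red and WT in dark blue, circles for less and triangles for more degraded cells, with a bar at the median of the 6 cells. For Hsp90ab1 4 red points lie above all WT points and 2 below them, and for Hspb1 all 6 red points lie at 893 CPM or below while 4 WT points lie at 2348 CPM or above.

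Hspb1 and Hspb8 are small heat shock proteins that hold unfolding proteins for the Hsp70 system. Hspb1 was lower in most Tnmd-/- cells, where it ran from 8.64 through a median of 302 to 893 CPM, against 3.99, 2688 and 3748 CPM in the WT cells. WT cells 1, 2, 4 and 10 (2348 to 3748 CPM) exceeded every Tnmd-/- cell, and WT cells 5 (215 CPM) and 14 (3.99 CPM) lay within or below the Tnmd-/- range. Pooled CPM was 510 (502 to 517) against 2064 (2052 to 2076), a log2 ratio of -2.02 that stayed between -2.35 and -1.76 with any 1 cell left out. It was -1.64 among the less and -4.21 among the more degraded cells, and -2.52, -2.65 and -2.69 under the scalings by cell. Hspb1 lies on chromosome 5 (135887919 to 135889563, plus strand, GENCODE M21 on GRCm38), and 39.1% of its 150-base words also occur in other genes, most often the excluded pseudogene Hsp25-ps1, which held 278 counts in all cells together. Hspb8 overlapped between the genotypes, with medians of 1107 CPM in Tnmd-/- cells and 925 CPM in WT cells, with a pooled log2 ratio of 0.47 (-1.11 among the more degraded cells) and single cells near 0 on both sides (11.96 CPM in Tnmd-/- cell 3 and 2.97 CPM in WT cell 4).

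Hspa1a and Hspa1b encode inducible Hsp70 and stood high in 4 of the 12 cells. Their summed level was 1205 CPM in WT cell 1, 2261 in WT cell 2, 2303 in WT cell 14 and 1377 in Tnmd-/- cell 7, and between 14.6 and 228 CPM in the other 8 cells. All 4 high cells were of the more degraded kind, and no less degraded cell of either genotype passed 228 CPM. The part of RNA degradation in this result, or of the lower depth that went with it, was not tested. Nor was that of the immediate early genes, which were summed at 7074 CPM in WT cell 1, 2855 in WT cell 2, 3838 in WT cell 14 and 5091 in Tnmd-/- cell 7, but also at 6802 CPM in Tnmd-/- cell 9, where the Hsp70 pair stood at 200 CPM. Of the 15 immediate early genes, 4 were higher and 3 lower by more than 2-fold, against 35.5% and 34.9% of all genes (median log2 ratio 0.57). Pooled over genotypes, Hspa1a had 97.3 CPM in Tnmd-/- cells and 219 in WT cells and Hspa1b 112 and 407 CPM, log2 ratios of -1.16 and -1.86. Among the less degraded cells both ratios had the other sign, at 0.51 and 0.83, and that of Hspa1b was -1.32, 0.78 and 0.75 under the scalings by cell. Of the 150-base words of Hspa1a, 39.7% also occur in other genes, most often Hspa1b, and the count of Hspa1b over Hspa1a varied from 0.255 to 136 among the Tnmd-/- cells and from 0.468 to 9.76 among the WT cells, so the pair is better read as a sum.

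**Figure D3:**
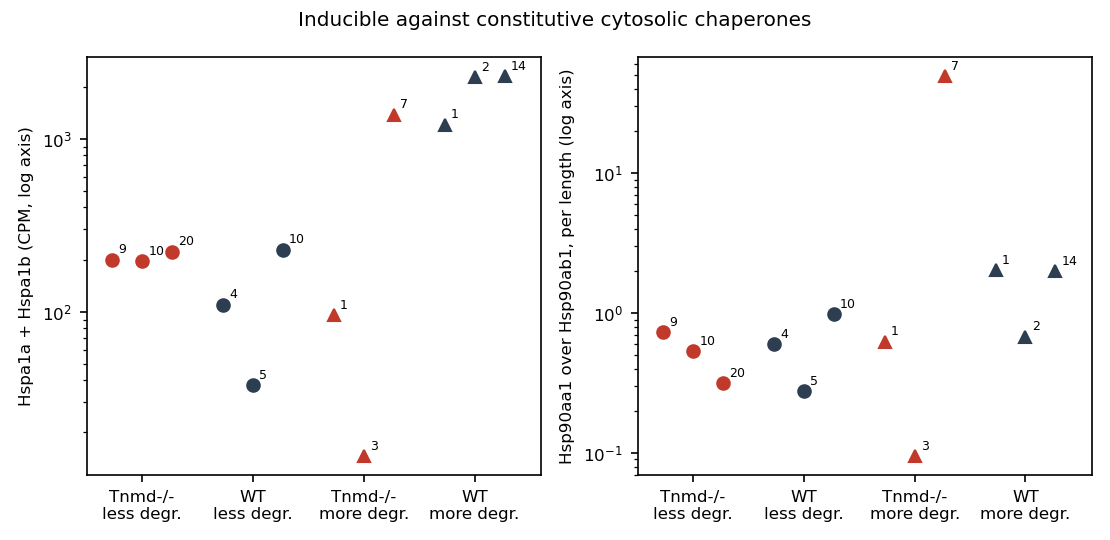
Left, summed CPM of Hspa1a and Hspa1b and right, the ratio of Hsp90aa1 to Hsp90ab1 per exon length, both on log axes, for each cell (points, with the cell number) by genotype and degradation level. The Hsp70 pair stands at 1205 to 2303 CPM in the more degraded Tnmd-/- cell 7 and WT cells 1, 2 and 14 and at 228 CPM or less elsewhere, and the ratio reaches 49.5 in Tnmd-/- cell 7 while the other cells lie between 0.0952 and 2.04.

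The partners of cytosolic Hsp70 were less even. Dnaja1, a J protein of the cytosol, was seen in all 12 cells with medians of 489 CPM in Tnmd-/- cells and 319 CPM in WT cells and a pooled log2 ratio of 0.65. Dnajb1, the J protein that pairs with Hsp70 under heat shock, was seen in 2 Tnmd-/- cells (174 and 569 CPM, cells 9 and 10) and 4 WT cells (14.1 to 151 CPM). Its pooled log2 ratio was 1.65, but 0.07 without Tnmd-/- cell 10 and -2.32 among the more degraded cells. Hsph1, an Hsp110, had medians of 58.3 and 178 CPM and a pooled log2 ratio of -0.77, with its highest level (1025 CPM) in WT cell 1. That ratio was 0.03 with WT cell 1 left out and 0.22 among the less degraded cells. Hspa4l, another Hsp110, was pooled at 366 CPM in Tnmd-/- cells and 60.8 CPM in WT cells (log2 ratio 2.57). It reached 654 to 1909 CPM in Tnmd-/- cells 1, 7 and 10 and 249 CPM in WT cell 5, which held 91.9% of the WT counts.

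TRiC needs 8 different subunits in equal number, and transcripts of all 8 were seen together in only 2 of the 12 cells. The number of subunits seen was 6, 4, 3, 6, 4 and 7 in Tnmd-/- cells 1, 3, 7, 9, 10 and 20 and 6, 5, 8, 6, 8 and 6 in WT cells 1, 2, 4, 5, 10 and 14. The complete sets thus stood in WT cells 4 and 10, which were also the deepest libraries (12473644 and 13613080 counts), and after thinning every cell to 892713 counts the numbers ranged from 3 to 6 in Tnmd-/- cells and from 4 to 8 in WT cells. Summed TRiC levels were 77.3, 1551 and 4680 CPM in Tnmd-/- cells and 1620, 2894 and 4939 CPM in WT cells, and the pooled log2 ratio was -0.35. The ratio of the sums was -0.12 in the less and -1.71 in the more degraded cells, and -0.84, -1.09 and -1.51 under the scalings by cell. By subunit, Cct2 (0.91), Cct3 (0.95) and Cct8 (0.64) had higher pooled CPM in the Tnmd-/- cells, and Tcp1 (-0.77), Cct4 (-2.26), Cct5 (-0.67), Cct6a (-1.16) and Cct7 (-1.28) lower. The subunits of 1 cell did not move together. In Tnmd-/- cell 10, Cct2 stood at 1215 CPM and Cct8 at 754 CPM, while Cct6a was at 0.485, Tcp1 at 0.0970 and Cct4 at 0 CPM. WT cell 14 had Tcp1 at 2033 and Cct7 at 1533 CPM but Cct2 at 1.99 and Cct3 at 0.221 CPM. Single cells also carried the pooled values: Tnmd-/- cell 20 held 99.6% of the Tnmd-/- counts of Cct5, and without it the ratio of Cct5 was -7.65. Leaving out Tnmd-/- cell 10 gave -0.47 for Cct3 and 0.21 for Cct2, leaving out WT cell 14 gave 0.54 for Tcp1, and leaving out Tnmd-/- cell 9 gave -6.69 for Cct4. The ratio of Cct8 was negative among the more degraded cells (-2.23) and under the scalings by cell (-0.21, -0.42 and -0.96).

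The ER members were led by Hspa5 (BiP), the Hsp70 of the ER lumen, with 49.3, 1526 and 3571 CPM in Tnmd-/- cells and 162, 1214 and 6822 CPM in WT cells. The ranges overlapped, and the order of the genotypes turned with the degradation level. Among the less degraded cells the Tnmd-/- cells had 1794, 3051 and 3571 CPM and the WT cells 450, 162 and 1244 CPM, without overlap (log2 ratio 2.07). Among the more degraded cells the Tnmd-/- cells had 1258, 526 and 49.3 CPM and the WT cells 3218, 6822 and 1183 CPM (log2 ratio -1.94). Pooled over all cells Hspa5 had 2324 (2308 to 2340) and 1535 (1525 to 1546) CPM, a log2 ratio of 0.60, which became -0.35, -0.46 and -0.27 under the scalings by cell. Hsp90b1 (Grp94), the Hsp90 of the ER, had medians of 385 and 477 CPM and a pooled log2 ratio of 0.22, with the lowest values in Tnmd-/- cell 3 (7.31 CPM) and WT cell 14 (5.98 CPM). Hspa5 over Hsp90b1 per exon length varied from 0.179 (Tnmd-/- cell 7, with Hspa5 at 49.3 CPM) to 189 (WT cell 14, with Hsp90b1 at 5.98 CPM). About 15.7% of the exon bases of Hsp90b1 overlap another gene, 1810014B01Rik, and the strand setting of the counting is not given in the sources used here.

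The J proteins of the ER differed more from cell to cell. Dnajb9 (ERdj4), which hands misfolded proteins to degradation, had medians of 109 and 309 CPM, yet a pooled log2 ratio of 0.79. Cell 10 (1012 CPM) held 62.5% of the Tnmd-/- counts, and leaving it out gave a ratio of -0.12. Under the scalings by cell the ratio was also negative (-0.30, -0.46 and -0.99). Dnajb11 (ERdj3), a partner of BiP, was at 60.9 CPM in Tnmd-/- cell 9 and under 1 CPM in the other Tnmd-/- cells, and 95.6% of its WT counts came from cell 2 (882 CPM). Its pooled log2 ratio was -2.15 over all cells and 1.92 without WT cell 2. Dnajc3 (p58IPK) was seen in 4 cells of each genotype, with a pooled log2 ratio of 0.34. Summed over the 13 ER members the cells had 407, 2901 and 4800 CPM in Tnmd-/- cells and 924, 2120 and 9621 CPM in WT cells. The pooled log2 ratio of the sum was 0.43, and it was 1.49 in the less and -1.43 in the more degraded cells. It turned negative under the scalings by cell, at -0.40, -0.41 and -0.32.

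The 3 mitochondrial members seen in most cells had pooled log2 ratios near 0 over all cells, which differed between the degradation levels. Hspa9 (mortalin), the Hsp70 that pulls imported proteins into the matrix, had 7.31, 503 and 1495 CPM in Tnmd-/- cells and 2.66, 482 and 2643 CPM in WT cells, with a pooled log2 ratio of 0.29. Hspd1 (Hsp60) had 5.98, 257 and 898 CPM against 176, 577 and 1155 CPM, and Hspe1 (Hsp10), the lid of the Hsp60 ring, 1.13, 203 and 586 CPM against 79.8, 197 and 309 CPM, with pooled log2 ratios of -0.06 and -0.04. All 3 overlapped between genotypes. In the less and the more degraded cells the ratios were 1.17 and -0.63 for Hspa9, 0.28 and -1.65 for Hspd1, -0.07 and -0.29 for Hspe1, and 0.45 and -0.95 for the sum of the 8 mitochondrial members. That sum was 0.02 over all cells and -0.47, -0.44 and -0.18 under the scalings by cell. Hspd1 and Hspe1 lie head to head on chromosome 1, and the heat shock elements printed above for Hspe1 lie in the promoter of both. Per exon length, Hspe1 over Hspd1 lay between 0.217 and 2.16 in all 6 WT cells. In the Tnmd-/- cells it spread from 0.00663 (cell 1, Hspd1 305 and Hspe1 1.13 CPM) to 176 (cell 3, Hspd1 5.98 and Hspe1 586 CPM), and it was at most 0.787 without cell 3. The share of mitochondrially encoded counts, 5.73% in cell 1 and 51.8% in cell 3, is given beside this range, and its part in it was not tested. The other 5 mitochondrial members, all J proteins, were seen in at most 3 cells each.

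J proteins were seen in fewer cells than the rest of the members. Of the 31 J proteins with at least 20 counts, 20 were seen in 4 cells or fewer and the median was 3 cells, whereas the 29 other members had a median of 11 cells and 15 of them were seen in 11 or 12. Over all 9768 genes with at least 20 counts the median was 2 cells. At 10 counts in every cell, 10 of the 60 members passed (Hspa8, Hsp90aa1, Hsp90ab1, Hspb1, Hspb8, Hspa1b, Dnaja1, Hspa5, Hsp90b1 and Hspa9) against 2.18% of all genes, and Dnaja1 was the 1 J protein among them. The classes also differed in level, with a median of 5.83 CPM per kb for the J proteins, 103 for the other members and 4.45 for all genes, and the part of level in the difference of detection was not tested. Counting members seen per cell gave 20 to 38 in Tnmd-/- cells and 26 to 39 in WT cells, and 13 to 36 and 19 to 36 after thinning to 892713 counts.

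**Figure D4:**
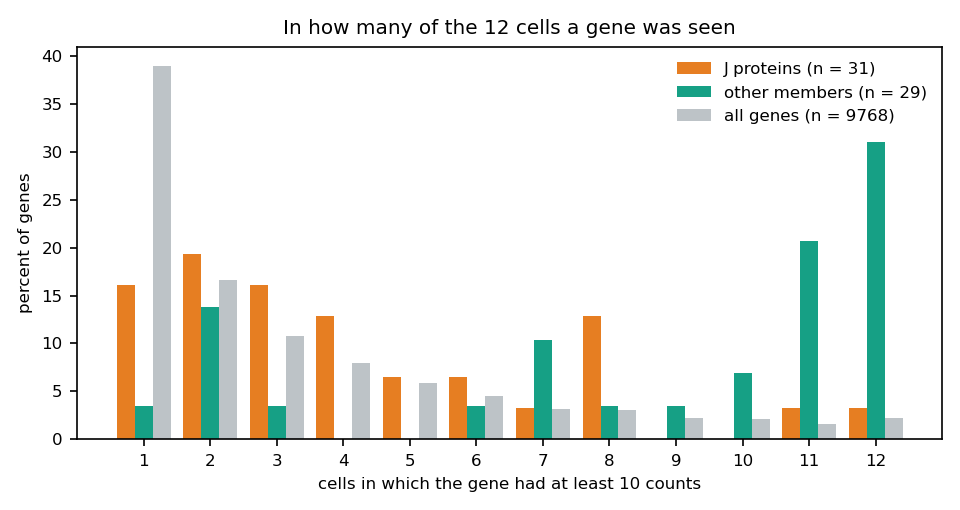
Percent of genes (y axis) by the number of cells, 1 to 12, in which the gene had at least 10 counts (x axis), for 31 J proteins (orange), 29 other members (green) and all 9768 genes (grey). J proteins lean to the left, like all genes, and 15 of the 29 other members stand at 11 or 12 cells.

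J proteins seen in few cells could stand high where they were seen. Among the 20 J proteins seen in 4 cells or fewer, the median share of counts held by the top cell was 91.4%, and it was 97.4% over the 7358 genes of that kind. Dnajc13, an endosomal J protein, was pooled at 58.7 CPM in Tnmd-/- cells and 0.131 CPM in WT cells (log2 ratio 5.72). It stood at 746 CPM in Tnmd-/- cell 7, 199 in cell 20, 0.665 to 3.95 in cells 1, 3 and 9 and 0 in cell 10, and its 7 WT counts all came from WT cell 10. Dnajc2, a J protein of the ribosome, had 1216 counts over the Tnmd-/- cells, 89.5% of them in cell 20, and 0 over the WT cells. Its pooled log2 ratio was 5.16, and 2.46 without Tnmd-/- cell 20. Set against 3 counts over the WT group, and without the added 1 CPM, it was at least 617-fold higher. Dnajc21, which acts in ribosome assembly, was pooled at 1.03 CPM in Tnmd-/- cells and 44.9 CPM in WT cells (log2 ratio -4.50), at 14.5 to 90.3 CPM in WT cells 2, 4, 5 and 14 and at 0 in WT cells 1 and 10 and in Tnmd-/- cells 7, 9, 10 and 20. Hspb11, an intraflagellar transport protein named for its resemblance to small heat shock proteins, was seen in Tnmd-/- cells 9 (119 CPM) and 20 (93.3 CPM) and in WT cell 10 (76.3 CPM). Dnajc5, a J protein of secretory vesicles, was seen in 5 Tnmd-/- and 3 WT cells (log2 ratio 0.80), and Dnajc8, of the spliceosome, in 2 and 4 (log2 ratio -0.42). The ratio of Dnajc5 was 0.08 without Tnmd-/- cell 10 and 1.89 without WT cell 4, and that of Dnajc8 was 0.50 without WT cell 4.

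Over all 60 members, 2-fold differences between the genotypes were not more frequent than over genes at large. More than 2-fold apart in pooled CPM were 13 members toward higher and 18 toward lower values in the Tnmd-/- cells. The shares over all 9768 genes were 35.5% and 34.9%. Within 2-fold lay 29 of the 60 members and 2893 of the 9768 genes. The members were seen in a median of 6 cells and all these genes in a median of 2. The part of detection in this comparison was not tested. The median log2 ratio was 0.14 over the members and 0.06 over all genes. The member median was the same with the 6 members at 0 counts in 1 genotype set to 3 counts. These 6 lay far from the median and 3 counts are small beside the added 1 CPM, so this could not change it. Under the scalings by cell the member median was -0.34, -0.44 and -0.43, against -0.04, -0.05 and 0.16 for all genes. By compartment, 6 of 31 cytosolic members were higher and 9 lower (median 0.25), 2 and 4 of 12 ER members (median -0.10), 0 and 3 of 8 mitochondrial members (median -0.08) and 5 and 2 of 9 members of other sites (median 1.39). Among the 8 TRiC subunits 0 were higher and 3 lower (median -0.72). No member had cell values without overlap between the genotypes, against 0.0205% of all genes in each direction.

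**Figure D5:**
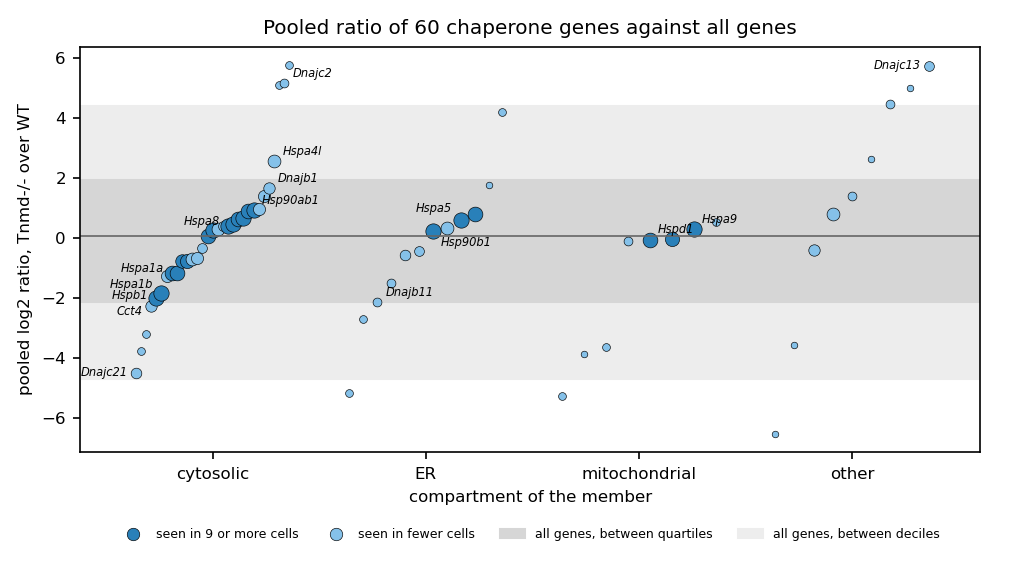
Pooled log2 ratio, Tnmd-/- over WT, of the 60 members (points, ordered within each compartment, larger points for genes seen in more cells, dark for 9 cells or more), with all 9768 genes as grey bands between the quartiles (-2.14 and 1.91) and deciles (-4.69 and 4.40) and a line at their median (0.06). Dark points stay between -2.02 and 0.92, within the inner band, and the points beyond the outer band are light.

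Within a degradation level, with 3 cells a genotype, a few members separated. Among the less degraded cells Hsp90ab1, Hspa5 and Cct8 lay higher in all 3 Tnmd-/- cells and Dnajb6, a J protein that holds back aggregation, lower, where 2.55% and 2.67% of all genes separated in these directions. The gap of Cct8 was narrow (508 CPM against 498 CPM). Among the more degraded cells Dnajc13, Dnajc5 and Hspa4l lay higher and Cct6a, Cct8, Dnajb9 and Hspa1a lower, against 2.89% and 1.48% of all genes. Summed with its near-identical neighbour Hspa1b, Hspa1a did overlap between these cells (1377 CPM in Tnmd-/- cell 7, 1205 CPM in WT cell 1). Cct8 was above WT in one level and below it in the other, and no member separated in the same direction in both.

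The other genes of these pathways were described by lists of their names. Of 13 HSF and cytosolic cochaperone genes with at least 20 counts, 2 were higher by more than 2-fold (Ahsa1, which activates Hsp90, log2 ratio 1.81, and Cdc37, which brings kinases to Hsp90, 1.58) and 7 lower, with a median of -1.65. Their summed level was nearly equal, at 1584 CPM in Tnmd-/- cells and 1643 CPM in WT cells (log2 ratio of the sums -0.05). Hsf1 had 5 counts over the Tnmd-/- and 220 over the WT cells, and was seen in 1 WT cell. Of the 6 prefoldin subunits, which hand actin and tubulin to TRiC, Pfdn6 was higher (1.93) and 4 were lower, with a median of -2.14, the largest in size being that of Pfdn1 (-5.83), seen in 3 WT cells and no Tnmd-/- cell. The 15 genes of ER folding and the unfolded protein response had 5 higher and 6 lower and a median of 0.18. Of these, Calr, Canx and Pdia3 were seen in every cell, with log2 ratios of 1.69, 0.18 and -0.11. Pdia6 (-6.01) and Herpud1 (-5.92) were seen in 2 Tnmd-/- and 3 WT cells. In the other direction, Hyou1 (5.04) and Sdf2l1 (4.37) were each seen in 1 Tnmd-/- cell and no WT cell. The 6 genes of mitochondrial folding and proteolysis had 3 higher and 2 lower and a median of 0.10, or 0.16 with genes at 0 in 1 genotype set to 3 counts. Over all genes the median was 0.06 and the shares beyond 2-fold 35.5% and 34.9%.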

How the data were processed

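Single ScxGFP+ cells, 6 Tnmd-/- and 6 WT, were amplified with Smart-Seq2 and sequenced. The authors removed reads not specific to mouse, aligned with STAR 2.5.1b to GRCm38 (Ensembl 96) and deposited raw counts of uniquely mapped exonic reads per gene, made with featureCounts (Subread 2.0.0), with no normalization and no molecular identifiers. From these counts CPM per cell and CPM of counts summed per genotype (35088506 Tnmd-/- and 53439236 WT counts) were computed in Python 3.11.15 (pandas 2.3.3, scipy 1.17.1). At that depth a gene at 0 lies under 0.0855 or 0.0561 CPM (3 counts over the group). Ratios were formed after adding 1 CPM, for genes whose 12 cells held 20 counts or more together. The calculation of pooled ratios was tested on simulated Poisson counts without spread between cells, so that test covers the arithmetic only. Each genotype was 1 sample, so there was no test.

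Named genes were Hsp90aa1, Hsp90ab1, Hsp90b1, Hspa8, Hspa1a, Hspa1b, Hspa5, Hspa9, Hspd1, Hspe1, Hsph1, Hspb1, Hspb8, Dnaja1, Dnajb1, Dnajb9, Dnajb11, Dnajc3 and the TRiC subunits, the 3 members of each compartment with the highest median CPM per kb, those seen in all cells, the 3 largest ratios each way among members seen in at least 3 cells of the higher genotype, and members whose ranges did not overlap. Dnajb6, named within a degradation level, and genes of the pathway lists were chosen after their values were seen. The members and the lists of pathway and marker genes were chosen with earlier results of these data known. Alternatives were equal weights for cells, TMM factors (edgeR 4.0.16), DESeq2 1.42.0 size factors, other totals, pseudocounts and minimum counts, thinning, each degradation level (read from the annotation of the study's heat map) and each cell left out. Coordinates and exon lengths came from GENCODE M21, matched for all 82 members, and promoters from RefSeq. Proteins were not analysed here.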

Additional observations from a re-analysis of the deposited data

Results flagged for a closer look

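Extreme cells were sought on the scale of log2(CPM + 1). Among 75 groups of 6 cells, 11 had a cell whose gap to the nearest other cell exceeded 0.625 of the range of its genotype. Chance gives about 1 in 20 for independent groups of normally distributed values. These groups are not independent, since the sums hold genes that were also taken singly, and WT Dnajc13 had counts in only 1 cell. Of the 11, 6 fell on 1 cell, Tnmd-/- cell 3, the cell with 51.8% mitochondrially encoded counts: the summed members at 2994 CPM, the summed cytosolic members at 1779 CPM, Hspa8 at 93.7 CPM, Hsp90aa1 at 142 CPM, Hsp90b1 at 7.31 CPM and Hspb8 at 11.96 CPM, each the lowest of its genotype. Without this cell the pooled log2 ratios of these quantities were 0.36 for all members, 0.36 for the cytosolic members, 0.47 for Hspa8, 0.32 for Hsp90aa1, 0.28 for Hsp90b1 and 0.53 for Hspb8.

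In the WT cells, cell 4 was far below the others for Hspb8 (2.97 CPM) and Dnajb9 (0.802 CPM), and cell 10 was far above them for Hspb11 (76.3 CPM) and the 1 cell with any count of Dnajc13 (0.514 CPM). Dnajb11 stood at 60.9 CPM in Tnmd-/- cell 9, far above the other Tnmd-/- cells.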

How the results depend on the processing

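The count of members whose genotypes did not overlap, 0 over all cells, was 4 in the less and 7 in the more degraded cells. It was 1 (Hsp90ab1) without Tnmd-/- cells 3 and 7, against 0.44% of all genes. Those cells were chosen after seeing the data, and are themselves the cells below the WT range of that gene. With any 1 cell left out the count was 0 to 1 (1 without Tnmd-/- cell 10, Dnajc13, against 0.102% of all genes). The count of members at 10 counts in every cell, 10, was 19 in the less degraded cells, 22 at a limit of 1 count and 4 after thinning to the shallowest cell. The summed ER ratio, 0.43, was -1.43 in the more degraded cells. Of the 33 named genes, 13 were past 2-fold over all cells, and of these the sign turned in Dnajb1 (-2.32, more degraded cells), Dnajb11 (2.04 in the less degraded cells, and -6.34 to 1.92 with 1 cell left out), Hspa1a (0.51, less degraded cells) and Hspa1b (0.83 in the less degraded cells, 0.78 with TMM and 0.75 with DESeq2 scaling). Of 660 values for the 33 named genes under 20 alternatives, 54, in 19 genes, had the other sign than over all cells. These include the 7 of genes past 2-fold, and 632 of the other values moved by less and 21 by more than the spread between cells. That spread is the standard deviation of log2(CPM + 1) of single cells within a genotype. It is a loose limit for ratios pooled over 6 cells, so the 632 say little of how stable a ratio is. Scaling by cell turned the ER sum and the median member negative. The DESeq2 factors of Tnmd-/- cells 3 and 7 were 0.0379 and 0.0319, against 0.558 to 5.01 in the other cells. Their TMM factors were 0.529 and 0.225, against 0.905 to 1.54. Counts are divided by these factors, so Tnmd-/- cells 3 and 7 weigh more than the others in the scaled means. With equal weights, TMM and DESeq2 factors the cytosolic sum was -0.01, 0.76 and 0.83, the ER sum -0.40, -0.41 and -0.32, the mitochondrial sum -0.47, -0.44 and -0.18, the TRiC sum -0.84, -1.09 and -1.51, the median member -0.34, -0.44 and -0.43, and the median of all genes -0.04, -0.05 and 0.16 (0.06 before). The causes were not tested. No paired analysis was possible because the results come from no test and the genotypes share only cell numbers 1 and 10, which name cells and pair nothing. At 892713 counts each, 13 members were seen in Tnmd-/- cell 3, 22 in cell 7 and 19 to 36 in the other cells. The 6 cells a genotype, of unnamed animals, limit every ratio.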
